A study of Mus musculus with 3 samples.

Results

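ATP-dependent chromatin remodelling genes were examined in mouse JB6 P+ cells, a line labelled as skin epithelial cells and used as a model of tumour promotion. They were chosen by gene symbol: the Smarc, Chd, Ino80 and Arid1 to Arid5 genes with Bptf, Pbrm1, Brd7, Brd9, Ep400 and Srcap. This gave 47 of the 24421 genes in the count table, of which 45 reached 1 CPM (read counts scaled to a common library size, here with TMM factors) in 1 library or more and are called measured. RNA sequencing was done on 3 libraries, 1 per group. The first group was given 50 nM CDDO, a synthetic triterpenoid, with 10 ng/mL of the phorbol ester TPA; the second was given TPA alone at that dose; the third was labelled control and given neither, as far as the labels say. The labels give 10% serum for growth in all 3 groups. Treatments were given on alternate days over 5 days in 1% serum. The labels do not say whether the control was kept in that treatment medium, with a vehicle or for the same time. The column taken as CDDO+TPA names only CDDO, and it was matched to the one sample whose labels name that compound.

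Each gene is represented by 1 library per group, so no difference here was tested against the spread between cultures and no p-value is given. The CDDO+TPA, TPA and control libraries held 7872089, 7813035 and 8190078 reads in genes, and the members took 0.616%, 0.695% and 0.649% of them. All intervals are at the 95% level; they describe read counting alone, and reads need not be independent molecules. Differences are described by a size rule: 2-fold or more in either direction on the log2 scale, with a counting interval of the fold that does not include 1. Of 8 keratinocyte markers, Krt5, Krt1 and Epcam had 0 reads in every library. The summed level of the list was 7.86, 10.5 and 14.1 CPM in CDDO+TPA, TPA and control. Most of it came from Krt10 (52, 73 and 104 reads), and Dsp had 3, 10 and 3 reads. The 8 mesenchymal markers summed to 1020, 876 and 1516 CPM in the same libraries, although Thy1 had 1, 0 and 0 reads. The labelled epithelial cells thus lacked reads of some keratinocyte markers (Krt5, Krt1 and Epcam) but not of Krt10. The leukocyte markers summed to 71.3, 52.5 and 22.3 CPM, nearly all of it from Cd68, a lysosomal protein of macrophages (562, 416 and 177 reads; 2.36-fold higher in TPA than in control and 3.22-fold higher in CDDO+TPA than in control), while Ptprc and Cd3e had 0 reads in all 3 libraries, and the 4 endothelial markers to 1.14, 2.13 and 0.749 CPM.

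Chromatin remodellers use ATP hydrolysis by a motor of the SNF2 family to slide, evict or exchange nucleosomes. SWI/SNF (BAF) complexes open regulatory DNA, ISWI complexes space nucleosomes, and CHD proteins read methylated histones or form the NuRD deacetylase complex. The INO80, SRCAP and EP400 motors have been tied to the placing or removal of the histone variant H2A.Z. The symbols chosen include genes outside these classes. Arid3, Arid4 and Arid5 genes share the ARID DNA-binding domain but encode no remodeller subunit, Smarcad1, Smarcal1 and Chd1l encode other SNF2-type motors, and Chd3os, Ino80dos and Smarca5-ps are antisense or pseudogene entries. That leaves 37 genes that encode remodelling motors, subunits or related SNF2 proteins, of which 36 were measured.

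Most members differed little between the libraries. Set against control, the TPA library had 3 of 45 members higher (6.67%) and 1 lower (2.22%) past the size rule, where 9.57% of all 13100 genes measured were higher and 5.91% lower. Set against TPA, the CDDO+TPA library had 1 member higher (2.22%) and 5 lower (11.1%), where 7.87% of all genes were higher and 7.78% lower. Set against control, CDDO+TPA had 0 members higher and 2 lower (4.44%), where 8.02% and 3.37% of all genes were. At a threshold of 1.5-fold, 6 members were higher and 3 lower for TPA over control (15.5% and 13.7% of all genes), 3 and 8 for CDDO+TPA over TPA (15.3% and 12.8%), and 2 and 4 for CDDO+TPA over control (13.4% and 8.7%). Of the 45, 33 had a negative log2 fold change for CDDO+TPA over TPA and 12 a positive one. Of all 13100 genes measured, 6444 had a negative value in that comparison and 6652 a positive one. Most members are well expressed, and 44 of the 45 were among the 9890 genes averaging at least 10 CPM. Over those genes the background was 3.85% higher and 4.81% lower for TPA over control, 5.28% and 2.3% for CDDO+TPA over TPA, and 5.13% and 1.67% for CDDO+TPA over control. Of those 44 members, 2 were higher and 1 lower for TPA over control, 1 and 4 for CDDO+TPA over TPA, and 0 and 2 for CDDO+TPA over control. The median log2 fold change of the members was 0.12, -0.16 and -0.07 in the 3 comparisons, and that of all genes measured was 0.00, 0.01 and -0.02. The comparisons share libraries, so their values are not independent of one another.

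**Figure D1:**
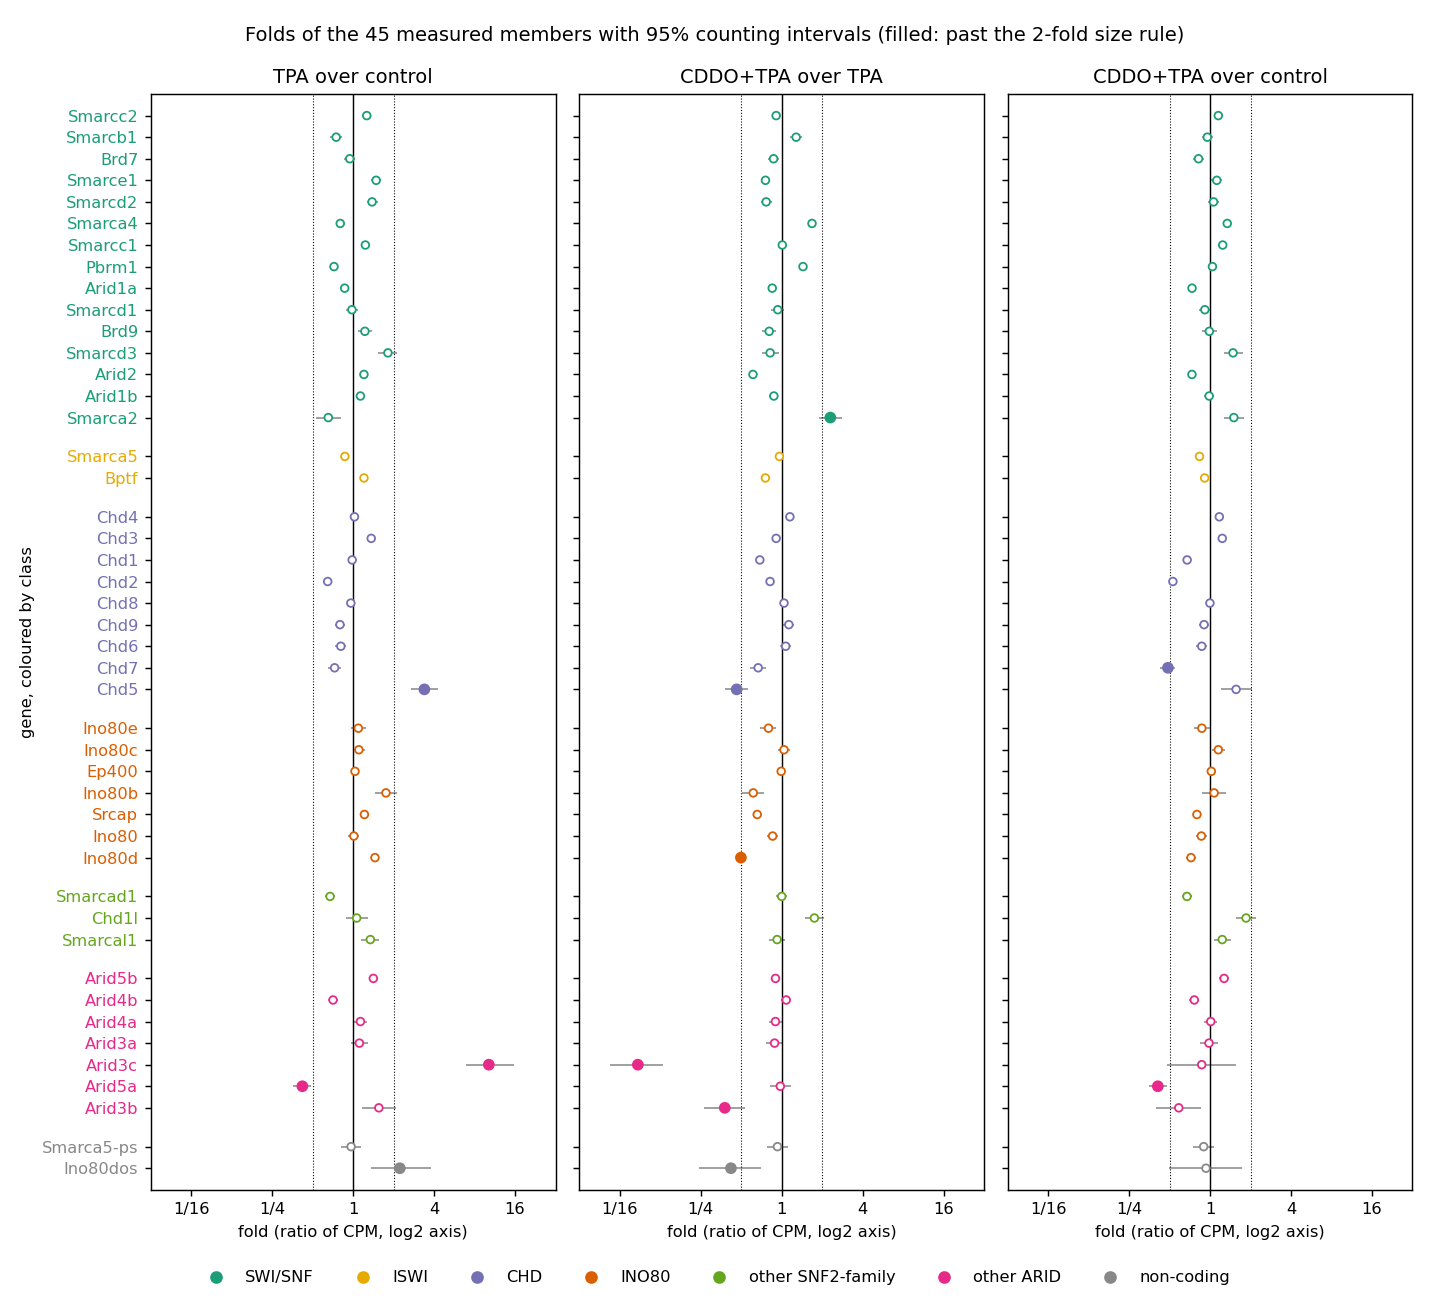
Folds (ratios of CPM, log2 axis) of the 45 measured members, ordered by class, with 95% counting intervals as bars; filled points are past the 2-fold size rule marked by dotted lines. Filled points are few: 4 for TPA over control, 6 for CDDO+TPA over TPA and 2 for CDDO+TPA over control.

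The largest difference belonged to Arid3c, an ARID-domain gene of the Bright family and not a remodeller subunit. It had 23 reads in the CDDO+TPA library, 273 in the TPA library and 27 in the control library. The TPA library stood alone, and CDDO+TPA and control lay close together. The gene was 10.2-fold higher in TPA than in control (interval 6.84 to 15.7) and 11.8-fold lower in CDDO+TPA than in TPA (7.68 to 18.9). CDDO+TPA and control were not distinguishable at this depth, with a fold of 1.16 lower (0.638 to 2.11). Its log2 fold change in TPA against control was among the highest 0.916% of all genes measured. Arid3c lies on chromosome 4, 41723836 to 41731142 on the minus strand in mm10, and shares no exonic base with another gene in the table. Its nearest gene, Dctn3, a dynactin subunit on the same strand 672 bases away, had 429 reads in CDDO+TPA, 517 in TPA and 440 in control, a log2 fold change of 0.24 in TPA against control.

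Chd5, a CHD motor of the NuRD type best known from neurons and testis, was also highest in the TPA library, at a low level. It had 146 reads in CDDO+TPA, 319 in TPA and 95 in control, over 9486 exonic bases. Control was lowest. Chd5 was 3.38-fold higher in TPA than in control (2.68 to 4.29) and 2.16-fold lower in CDDO+TPA than in TPA (1.77 to 2.65). In CDDO+TPA against control it was 1.56-fold higher (1.2 to 2.04), short of the size rule. Kcnab2, a potassium channel subunit gene that lies 545 bases from it on the other strand, had 307, 221 and 151 reads in CDDO+TPA, TPA and control, highest in a different library. The 4 neuronal markers summed to 32.6, 22.7 and 29.2 CPM in these libraries, none of them past the size rule, and Rbfox3 had 0 reads in all 3.

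Ino80d, an INO80 subunit, and its divergent non-coding neighbour Ino80dos were both highest in the TPA library. Ino80d had 1017 reads in CDDO+TPA, 2066 in TPA and 1435 in control, and Ino80dos had 22, 53 and 24 reads in the same libraries. Ino80d was 2.01-fold lower in CDDO+TPA than in TPA (1.87 to 2.17), just past the size rule, and 1.45-fold higher in TPA than in control (1.35 to 1.55), which was not past it. Ino80dos was 2.39-fold lower in CDDO+TPA than in TPA (1.43 to 4.12) and 2.22-fold higher in TPA than in control (1.35 to 3.76). Ino80d occupies chromosome 1, 63047801 to 63114267 on the minus strand, and Ino80dos 63114471 to 63158295 on the plus strand, so that 203 bases part them. They share no exonic base, although 13.8% of the exonic length of Ino80dos overlaps Ndufs1 on the other strand, and reads were counted without strand. The other antisense entry, Chd3os, had 2, 6 and 1 reads in CDDO+TPA, TPA and control, too few to be measured.

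Smarca2, which encodes the SWI/SNF motor BRM, was the only member higher in CDDO+TPA than in TPA past the size rule. It had 340 reads in CDDO+TPA, 149 in TPA and 230 in control. The TPA library was lowest and CDDO+TPA highest. The gene was 2.3-fold higher in CDDO+TPA than in TPA (1.89 to 2.81), 1.53-fold lower in TPA than in control (1.24 to 1.9) and 1.5-fold higher in CDDO+TPA than in control (1.27 to 1.78).

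DNA just upstream of the starts of Arid3c, Chd5 and Smarca2, and between Ino80d and Ino80dos, is shown as examples of members past the size rule, including the one with the largest fold; capitals mark GC boxes (GGGCGG on either strand). The sequences are 5′ to 3′ on the strand of the gene, from RefSeq on GRCm38.p6, the same assembly as mm10, and end at the base before the annotated start. The last one is the plus-strand interval between Ino80d and Ino80dos.
Arid3c (chr4:41731143-41731392, minus strand): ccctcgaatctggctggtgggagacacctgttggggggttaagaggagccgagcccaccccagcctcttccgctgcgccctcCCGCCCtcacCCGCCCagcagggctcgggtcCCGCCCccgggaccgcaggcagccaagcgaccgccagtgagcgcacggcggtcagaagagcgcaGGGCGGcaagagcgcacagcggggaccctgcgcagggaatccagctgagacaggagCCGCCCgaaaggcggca
Chd5 (chr4:152338401-152338650, plus strand): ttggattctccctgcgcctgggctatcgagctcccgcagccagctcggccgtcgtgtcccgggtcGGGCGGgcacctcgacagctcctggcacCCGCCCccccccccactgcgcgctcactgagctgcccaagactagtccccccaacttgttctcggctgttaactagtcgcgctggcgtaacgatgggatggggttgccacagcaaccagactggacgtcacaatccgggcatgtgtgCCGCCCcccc
Smarca2 (chr19:26604910-26605159, plus strand): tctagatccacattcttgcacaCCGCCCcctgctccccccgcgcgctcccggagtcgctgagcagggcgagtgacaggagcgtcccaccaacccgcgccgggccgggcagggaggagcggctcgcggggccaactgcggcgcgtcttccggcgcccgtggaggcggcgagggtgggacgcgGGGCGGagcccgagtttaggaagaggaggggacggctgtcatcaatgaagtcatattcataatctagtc
Ino80d-Ino80dos (chr1:63114268-63114470, plus strand): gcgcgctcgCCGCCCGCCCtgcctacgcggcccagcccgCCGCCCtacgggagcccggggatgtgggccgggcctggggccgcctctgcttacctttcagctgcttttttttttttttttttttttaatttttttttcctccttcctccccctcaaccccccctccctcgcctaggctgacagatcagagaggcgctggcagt

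RefSeq windows were found for 35 of the 47 members, 44 windows in all, and each was read over the 250 bases before its start. The members' windows were rich in CpG, with a median of 21 CpG dinucleotides and 65.8% G+C, against 6 and 52.4% over all 32851 windows. A GC box was present in 75.0% of the members' windows and 32.7% of all windows, and a TATA box (TATAAA, either strand) in 4.55% and 12.4%. All windows include those of genes not measured here, and windows of 1 gene can overlap. The AP-1 element TGACTCA, the site at which TPA-responsive AP-1 factors bind, was found in 1 member window on either strand (2.27%, against 4.46% of all windows). The ARE core TGACNNNGC, bound by NRF2, was found in 2 (4.55%, against 10.2%), and the CRE, TGACGTCA, in none of the 44 (1.55% of all windows). An AP-1 element followed by GC also reads as an ARE core, and no member window held such an overlap. The matches, in capitals below, were upstream of genes that stayed within the size rule in all 3 comparisons. A match is a run of letters in this window, not a bound site.
Smarcb1, AP-1 element (chr10:75921741-75921800, minus strand): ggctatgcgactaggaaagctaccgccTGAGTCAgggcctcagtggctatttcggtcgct
Bptf, ARE core (chr11:107132153-107132212, minus strand): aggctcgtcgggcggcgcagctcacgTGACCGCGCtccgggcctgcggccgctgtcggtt
Smarcad1, ARE core (chr6:65042531-65042590, plus strand): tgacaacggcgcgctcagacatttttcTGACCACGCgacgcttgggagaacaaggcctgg

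The SWI/SNF class was measured in full, 15 of 15 genes. None was past the size rule in TPA against control, where 9.57% of all genes were higher and 5.91% lower. In CDDO+TPA against TPA 1 was higher and none lower (7.87% and 7.78% of all genes). None was past the rule in CDDO+TPA against control (8.02% and 3.37% of all genes). Counts this small cannot be set apart from those shares, here or in the smaller classes below. Both alternative motors were lowest in the TPA library. Smarca4, which encodes BRG1, had 2285 reads in CDDO+TPA, 1375 in TPA and 1729 in control. It was 1.68-fold higher in CDDO+TPA than in TPA (1.57 to 1.79) and 1.25-fold lower in TPA than in control (1.16 to 1.34). Smarca2 supplied 13% (11.7 to 14.3) of the reads of the pair in CDDO+TPA, 9.78% (8.33 to 11.4) in TPA and 11.7% (10.3 to 13.2) in control. The interval of CDDO+TPA lay above that of TPA, and the control interval overlapped both. Per kilobase of exons, Smarca4 stood at 45.4, 27.1 and 33.8 CPM in CDDO+TPA, TPA and control, and Smarca2 at 7.08, 3.07 and 4.72.

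Pbrm1 and Smarcb1 were also lowest in the TPA library. Pbrm1, the polybromo subunit that defines the PBAF form, had 2348 reads in CDDO+TPA, 1641 in TPA and 2297 in control. Smarcb1, a core subunit, had 809, 640 and 863 reads in the same libraries. Neither was past the size rule: Pbrm1 was 1.44-fold higher in CDDO+TPA than in TPA (1.36 to 1.54), and Smarcb1 1.28-fold higher (1.15 to 1.42). Arid2, another PBAF subunit, was highest in the TPA library, and Brd7, also of PBAF, had 763, 885 and 946 reads in CDDO+TPA, TPA and control. Arid2 had 1318 reads in CDDO+TPA, 2177 in TPA and 1829 in control, and was 1.64-fold lower in CDDO+TPA than in TPA (1.53 to 1.75). As a share of the reads of Arid2, Arid1a and Arid1b together, Arid2 held 31% (29.6 to 32.4), 38.7% (37.4 to 40) and 33.4% (32.1 to 34.7) in CDDO+TPA, TPA and control. Pbrm1 held 44.4% (43.1 to 45.8), 32.2% (31 to 33.5) and 38.6% (37.4 to 39.9) of its reads with Arid1a and Arid1b. The 3 intervals of Pbrm1 were apart from each other, with TPA lowest, whereas for Arid2 the TPA interval lay above both others.

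The remaining SWI/SNF genes form the scaffold and choose the variant of the complex. The scaffold gene Smarcc2 stood at 70.5, 77.6 and 61.5 CPM per kilobase in CDDO+TPA, TPA and control, the highest level of all members in CDDO+TPA and TPA, while in control Smarcb1 was higher, at 65.0. Its paralogue Smarcc1 stood at 35.3, 35.1 and 28.5 CPM per kilobase. Arid1a, the DNA-binding subunit of canonical BAF, had 1746 reads in CDDO+TPA, 2073 in TPA and 2417 in control, while its paralogue Arid1b had 1192, 1377 and 1231. Arid1b thus supplied 40.6% (38.8 to 42.4) and 39.9% (38.3 to 41.6) of the pair's reads in CDDO+TPA and TPA, and 33.7% (32.2 to 35.3) in control. Smarcd3, the BAF60C subunit linked to muscle, had 352, 433 and 241 reads in CDDO+TPA, TPA and control, and was 1.81-fold higher in TPA than in control (1.54 to 2.12). It supplied 19.7% (17.9 to 21.7), 20% (18.4 to 21.8) and 14.1% (12.5 to 15.8) of the Smarcd reads, so both treated libraries lay above control. Smarcd1, Smarcd2, Smarce1, Brd7 and Brd9 had log2 fold changes between -0.40 and 0.56 across the 3 comparisons.

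**Figure D2:**
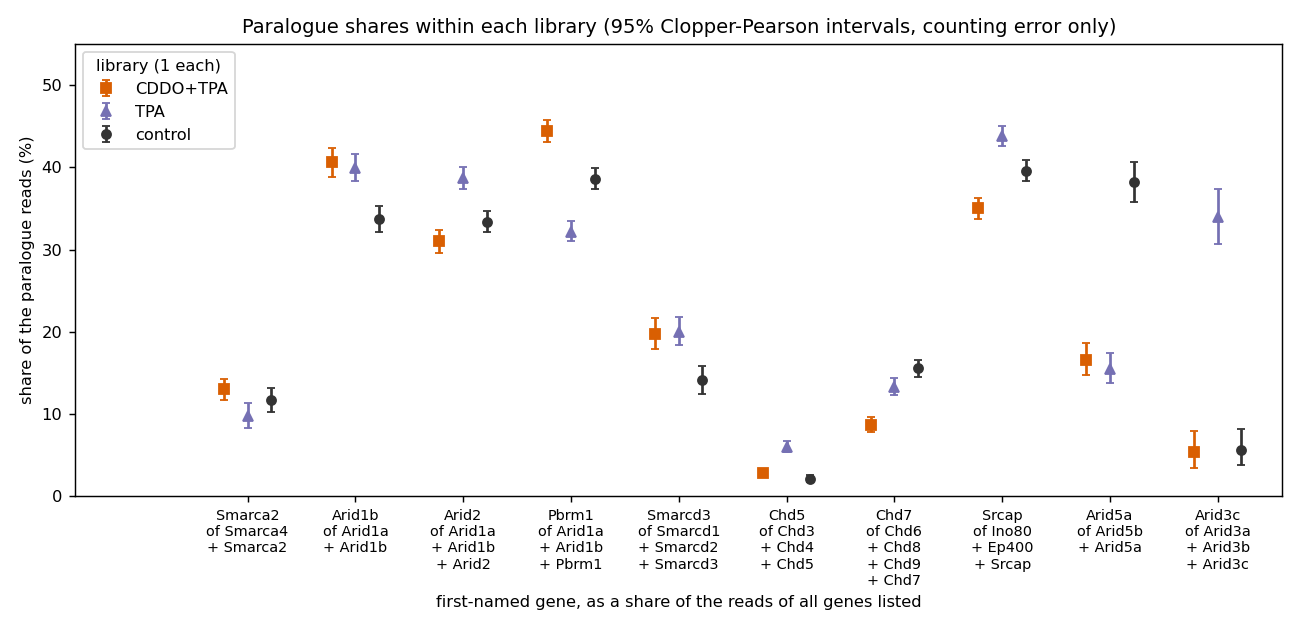
Reads of the first-named gene as a percentage of the reads of its set, in the CDDO+TPA, TPA and control libraries, with 95% Clopper-Pearson intervals. The plot labels all sets as paralogues, but Pbrm1 is a PBAF subunit set against Arid1a and Arid1b and not their paralogue. Of the 10 sets plotted, those of Pbrm1, Chd7 and Srcap have 3 intervals apart from each other, and for Arid2, Chd5, Srcap and Arid3c the TPA interval lies above both others.

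Of the ISWI class, 2 of 3 genes were measured and none was past the size rule. With so few genes this cannot be set apart from the shares of all genes given for SWI/SNF. Smarca5, which encodes the motor SNF2H, had 1561 reads in CDDO+TPA, 1639 in TPA and 1903 in control, and Smarca1, the SNF2L motor, had 0 reads in all 3 libraries, so that any level lay under 0.380, 0.377 and 0.374 CPM (3 counts). Bptf, the histone-reading subunit of the NURF complex, had 3053, 4078 and 3406 reads. It was 1.32-fold lower in CDDO+TPA than in TPA (1.26 to 1.39). The pseudogene Smarca5-ps had 246, 267 and 279 reads in CDDO+TPA, TPA and control; as a near-identical copy it can share reads with Smarca5, and values of the pair are uncertain to that extent.

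The CHD class had 9 of 9 genes measured. Past the size rule, 1 was higher for TPA over control (9.57% of all genes). For CDDO+TPA over TPA 1 was lower (7.78%), and for CDDO+TPA over control 1 was lower (3.37%). Besides Chd5, only Chd7, the CHARGE syndrome gene in humans, was past the size rule. It had 350 reads in CDDO+TPA, 529 in TPA and 733 in control, so that CDDO+TPA was lowest and control highest. Chd7 was 2.06-fold lower in CDDO+TPA than in control (1.81 to 2.35), 1.5-fold lower in CDDO+TPA than in TPA (1.31 to 1.72) and 1.38-fold lower in TPA than in control (1.23 to 1.54). The value against control met the size rule narrowly, at a log2 fold change of -1.04, and with upper-quartile scaling it fell just short. It supplied 8.73% (7.88 to 9.65), 13.3% (12.3 to 14.4) and 15.6% (14.5 to 16.6) of the reads of Chd6 to Chd9 in CDDO+TPA, TPA and control.

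Chd2, a motor of the CHD1 group, had 1700 reads in CDDO+TPA, 2096 in TPA and 3270 in control, and was 1.89-fold lower in CDDO+TPA than in control (1.79 to 2.01). Its exons overlap those of 1810026B05Rik on the same strand over 6.99% of its length. Chd1, which binds trimethylated lysine 4 of histone H3, had 1638, 2406 and 2467 reads, with the TPA and control libraries within counting error of each other and CDDO+TPA 1.46-fold lower than TPA (1.37 to 1.55). Of the main NuRD motors, Chd4 had 3008, 2647 and 2605 reads and Chd3 had 2086, 2315 and 1716 reads in CDDO+TPA, TPA and control. Chd5 supplied 2.79% (2.36 to 3.27), 6.04% (5.41 to 6.72) and 2.15% (1.74 to 2.62) of the reads of Chd3, Chd4 and Chd5, so Chd4 and Chd3 made up nearly all of the set in every library. Chd6, Chd8 and Chd9 had log2 fold changes between -0.33 and 0.18.

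All 7 genes of the INO80 class were measured. Their log2 fold changes for TPA over control lay between 0.01 and 0.80. For CDDO+TPA over TPA 6 of 7 were negative (6444 of all 13100 genes), with a class median of -0.33. Only Ino80d was past the size rule, which made 1 of 7 lower for CDDO+TPA over TPA (7.78% of all genes). The motor gene Ino80 had 881 reads in CDDO+TPA, 1039 in TPA and 1040 in control, and Ep400, the motor of the TIP60-EP400 complex, had 2531, 2578 and 2519, within counting error in all 3 comparisons. Srcap, which loads H2A.Z, had 1834, 2818 and 2335 reads and was 1.52-fold lower in CDDO+TPA than in TPA (1.43 to 1.62). Of the reads of the 3 motors, Srcap supplied 35% (33.7 to 36.3), 43.8% (42.6 to 45) and 39.6% (38.4 to 40.9) in CDDO+TPA, TPA and control. Ino80b had 191, 314 and 181 reads and was 1.75-fold higher in TPA than in control (1.45 to 2.11) and 1.63-fold lower in CDDO+TPA than in TPA (1.36 to 1.96). Ino80c and Ino80e stayed between -0.33 and 0.20 on the log2 scale; of the length of Ino80e, 25% overlaps exons of Doc2a on the other strand.

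Among the 3 other SNF2-family genes none was past the size rule. With 3 genes this cannot be set apart from the shares of all genes given for SWI/SNF. Chd1l, the PARP-activated remodeller ALC1, had 407 reads in CDDO+TPA, 235 in TPA and 223 in control, with CDDO+TPA apart from the other libraries. It was 1.75-fold higher in CDDO+TPA than in TPA (1.49 to 2.06) and 1.85-fold higher in CDDO+TPA than in control (1.57 to 2.19). Smarcad1, which acts on chromatin at replication and repair sites, had 823, 831 and 1244 reads and was 1.49-fold lower in TPA than in control (1.36 to 1.63). Smarcal1, an annealing helicase of stalled forks, had 378, 413 and 311 reads.

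Of the 7 ARID genes outside the complexes, Arid3c, Arid5a and Arid3b were past the size rule in some comparison. For TPA over control 1 was higher and 1 lower (9.57% and 5.91% of all genes). The counts were 0 and 2 for CDDO+TPA over TPA (7.87% and 7.78%), and 0 and 1 for CDDO+TPA over control (8.02% and 3.37%). Counts this small cannot be set apart from those shares. Arid5a, an RNA- and DNA-binding protein that stabilises Il6 mRNA, had 234 reads in CDDO+TPA, 242 in TPA and 582 in control. Both treated libraries were low and close together. Arid5a was 2.39-fold lower in TPA than in control (2.05 to 2.79) and 2.45-fold lower in CDDO+TPA than in control (2.1 to 2.86), and CDDO+TPA and TPA were within counting error of each other. Its paralogue Arid5b had 1173, 1317 and 940 reads, so the Arid5a share of the pair was 16.6% (14.7 to 18.7), 15.5% (13.8 to 17.4) and 38.2% (35.8 to 40.7) in CDDO+TPA, TPA and control. Arid3b, a paralogue of Arid3c, had 46, 123 and 80 reads and was 2.65-fold lower in CDDO+TPA than in TPA (1.87 to 3.8). Arid3a, Arid4a and Arid4b, of which the last 2 belong to the SIN3 repressor, stayed between -0.50 and 0.17.

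Other subunits of the same complexes, which the symbol choice leaves out, were counted in the same way, against the shares of all genes given above (9.57% higher and 5.91% lower for TPA over control, 7.87% and 7.78% for CDDO+TPA over TPA, 8.02% and 3.37% for CDDO+TPA over control). With 0 or 1 gene past the rule per list and direction, the counts are too small to set apart from these shares. Of 13 measured SWI/SNF partners, Ss18l1, the paralogue of the Ss18 subunit, was 2.23-fold higher in TPA than in control (1.81 to 2.76) with 167, 288 and 130 reads in CDDO+TPA, TPA and control. Dpf1, a PHD-finger subunit of neuronal BAF, had 113, 62 and 45 reads and was 2.55-fold higher in CDDO+TPA than in control (1.79 to 3.69). No other SWI/SNF partner was past the rule. For TPA over control, log2 fold changes of the 12 NuRD partners ran from -0.55 (Hdac1) to 0.87 (Mta3). Hdac1 had 580, 354 and 524 reads and Mta3 had 500, 544 and 298 in CDDO+TPA, TPA and control. None of the 12 was past the rule in any comparison. Of 10 ISWI partners only Cecr2 was, with 1, 13 and 1 reads and a fold of 13.1 for TPA over control that 1 read in control leaves between 1.96 and 556. Of 24 INO80, SRCAP and TIP60 partners only Epc1, the enhancer-of-polycomb scaffold of TIP60, was past it, with 628 reads in CDDO+TPA, 1653 in TPA and 821 in control. Epc1 was 2.03-fold higher in TPA than in control (1.86 to 2.2) and 2.61-fold lower in CDDO+TPA than in TPA (2.38 to 2.86).

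A list of 12 further SNF2-type helicases differed from these. In CDDO+TPA against TPA, 5 of 12 were higher past the size rule and none was lower (41.7%, against 7.87% higher among all genes), with a list median of 0.53. This list and the cell cycle list below were chosen with earlier results of these data known. Their shares are therefore descriptions and not a test. Rad54b, a recombination motor, had 167 reads in CDDO+TPA, 27 in TPA and 33 in control and was 6.24-fold higher in CDDO+TPA than in TPA (4.14 to 9.75). Ercc6l, the mitotic helicase PICH, at 622, 140 and 182 reads, showed a 4.48-fold difference in the same direction (3.73 to 5.43). Rad54l, Zranb3 and Ttf2 were 3.72-fold (2.62 to 5.39), 3.48-fold (2.32 to 5.38) and 2.02-fold (1.73 to 2.36) higher. Rad54b, Rad54l and Ercc6l were higher past the rule for CDDO+TPA over control too (25% of the list, against 8.02% of all genes). For TPA over control no helicase of the list was past it. Of 26 cell cycle genes, 18 were higher and none lower for CDDO+TPA over TPA (7.87% and 7.78% of all genes). For CDDO+TPA over control 16 were higher and 0 lower (8.02% and 3.37%). Unlike the helicases, 8 were lower and 1 higher for TPA over control (5.91% and 9.57%). The summed level of the cell cycle genes was 3175, 1186 and 1523 CPM in CDDO+TPA, TPA and control. Whether that shift has a part in the values of Smarca2, Smarca4, Chd1l or these helicases was not tested.

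**Figure D3:**
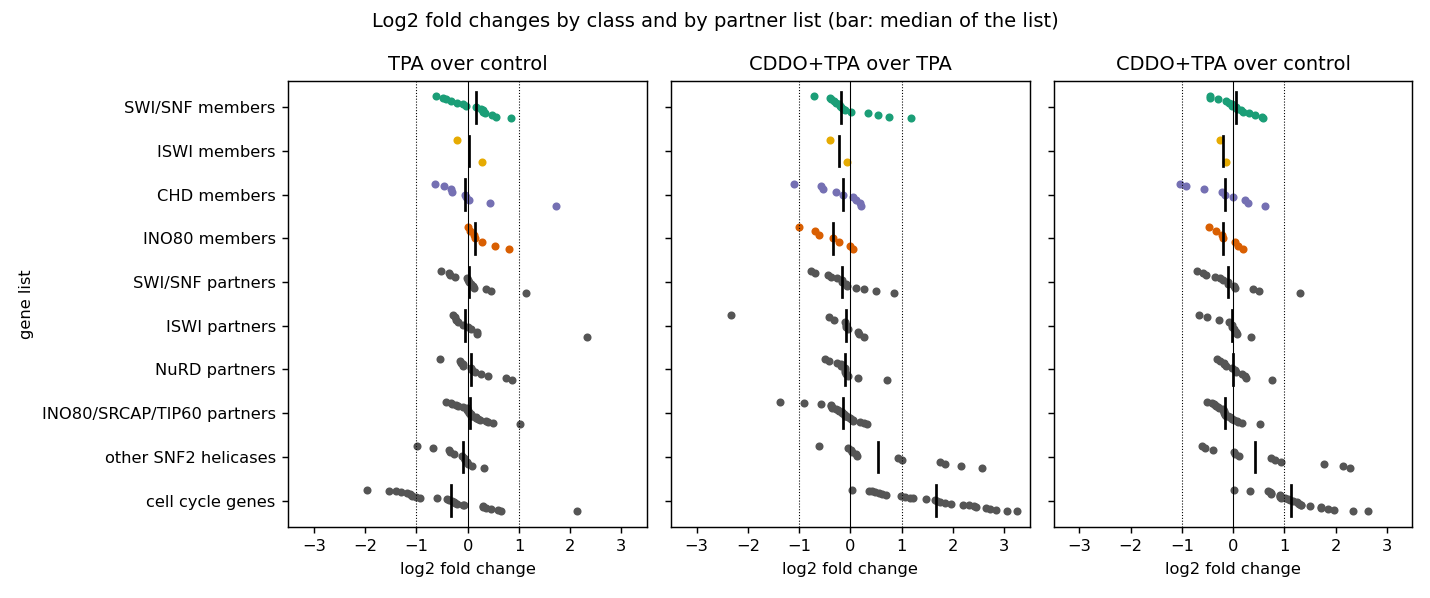
Log2 fold changes of the measured genes of the SWI/SNF, ISWI, CHD and INO80 classes and of the partner lists, 1 point per gene, with the list median as a bar and dotted lines at the size rule. For CDDO+TPA over TPA the medians of the 4 classes lie between -0.33 and -0.14, those of the other SNF2 helicases and of the cell cycle genes at 0.53 and 1.67.

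Longer members tended to have more reads. Their median exonic length was 5794 bases, against 2858 for all genes measured, and 36 of the 45 lay above that median; the range over all 47 was 1038 (Ino80b) to 13529 bases (Ino80d). Across the 45 measured members, length and mean log2 CPM had a Spearman correlation of 0.56, against 0.34 across all genes measured; with CPM per kilobase in place of CPM the correlations were -0.21 and -0.11. Bptf, with 11488 exonic bases, ranked 1 by mean CPM and 8 by mean CPM per kilobase. Smarcb1, with 1657 bases, ranked 27 by CPM and 2 per kilobase, and Ino80e, with 1091 bases, ranked 33 and 4. Ino80d, the longest, ranked 15 and 32. Duplicate removal caps reads of abundant genes, and its effect on these ranks and correlations was not tested. Per kilobase, the top of the order was Smarcc2, Smarcb1, Chd4, Ino80e and Smarca5, with means over the 3 libraries of 69.9, 58.4, 53.9, 49.5 and 46.1 CPM, and the order of neighbours changed between libraries.

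**Figure D4:**
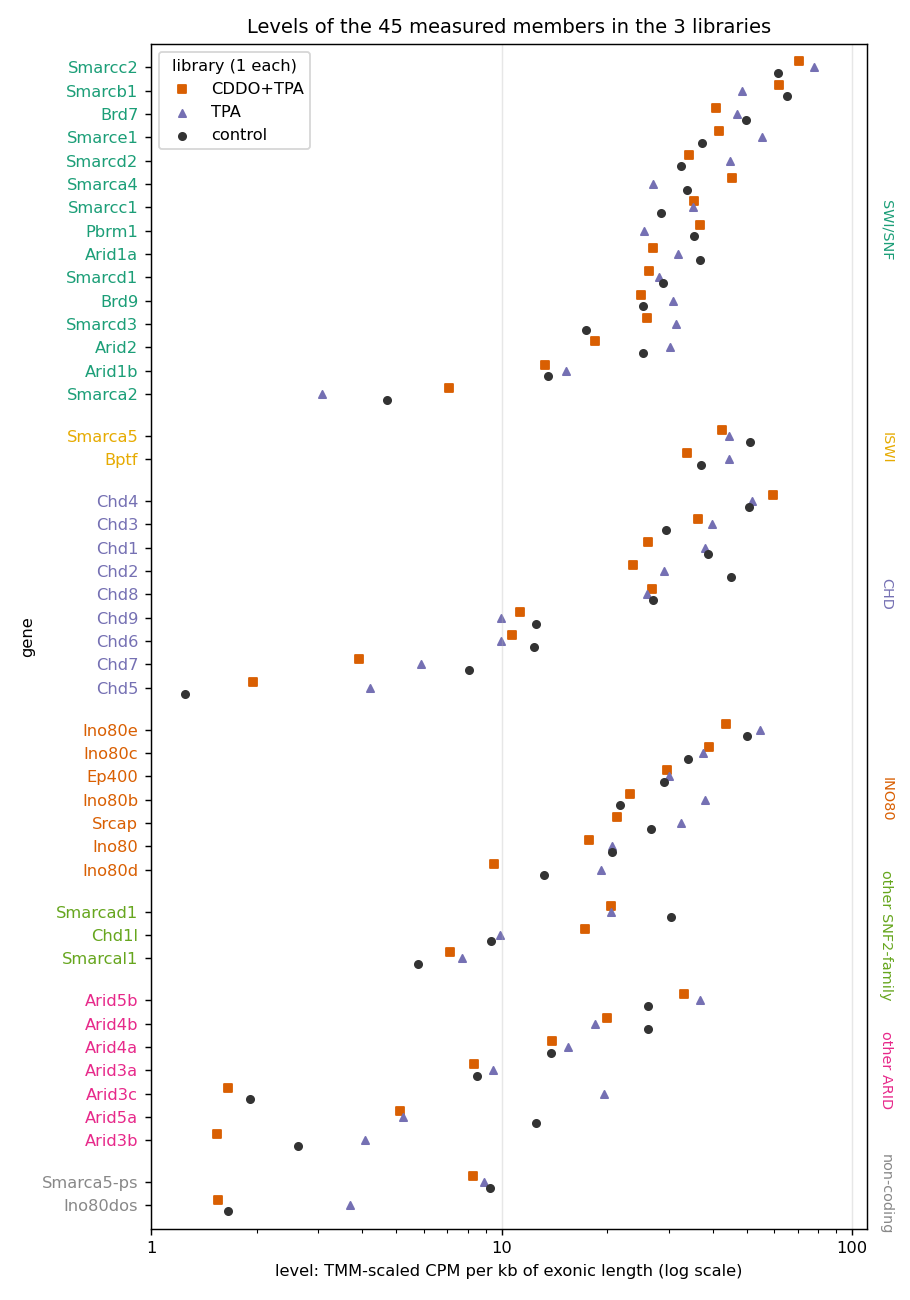
Levels of the 45 measured members in the 3 libraries, as TMM-scaled CPM per kilobase of exonic length on a log axis, ordered within each class by their mean. For most members the 3 libraries lie close together; Arid3c, with 1.66 in CDDO+TPA, 19.6 in TPA and 1.92 in control, has the widest gap.

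Fold changes followed length weakly at most, and the sign was not the same in every comparison. Across the 45 members, the Spearman correlation of log2 fold change with exonic length was -0.27 for TPA over control, 0.04 for CDDO+TPA over TPA and -0.23 for CDDO+TPA over control (Pearson -0.33, 0.19 and -0.22). Across all 13100 genes it was -0.08, 0.11 and 0.04. These describe genes within the same 3 libraries, which share depth and length bias, and genes are not independent replicates. The 22 members longer than 5794 bases had a median log2 fold change of -0.01 in TPA against control and the 23 others 0.17, against -0.06 and 0.01 for all genes split at the same length. In CDDO+TPA against TPA the medians were -0.17 and -0.16 for members, and 0.09 and 0.00 for all genes. Removing the trend of fold change on length over all genes changed none of the members' calls.

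**Figure D5:**
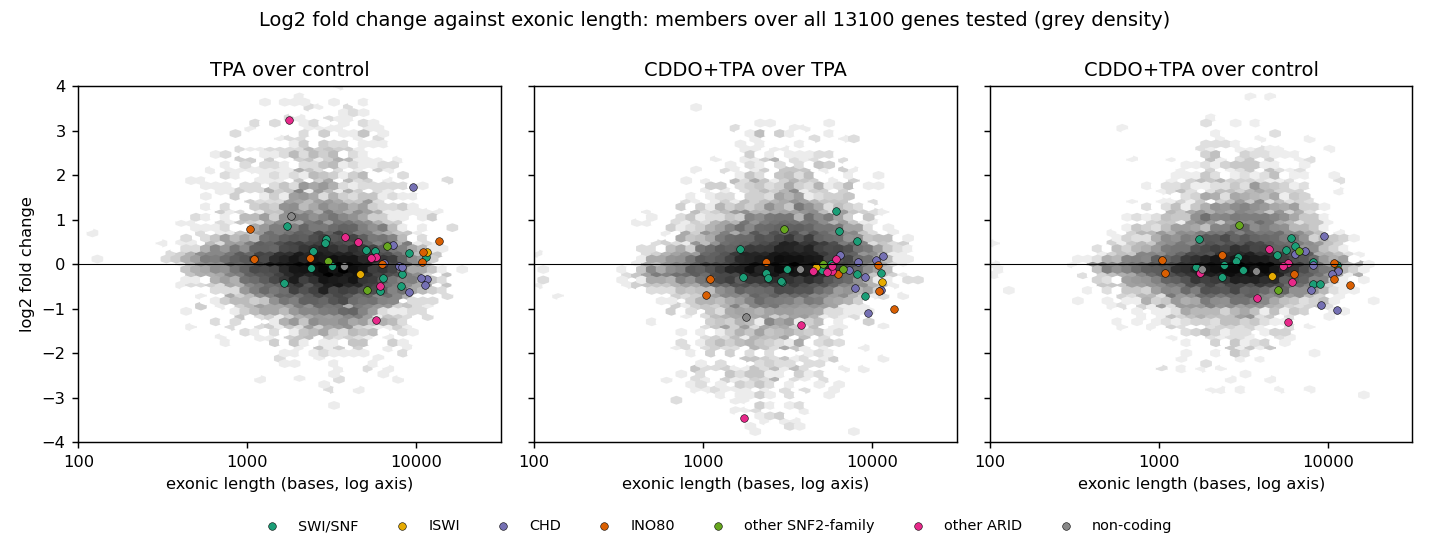
Log2 fold change against exonic length (log axis) for the members, coloured by class, over the density of all genes measured in grey; 111, 97 and 77 genes lie outside the plotted range in the 3 panels in turn, and no member does. The members sit to the long side of the grey cloud and mostly close to 0, with Arid3c far from it in the first and second panels.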

How the data were processed

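The authors deposited 1 table of whole-number read counts per gene symbol with exonic length. Per the file headers, featureCounts 1.5.3 counted primary alignments against a UCSC mm10 annotation, with no strand or read-pair option; the column names mark duplicate removal, which caps reads of abundant genes. The submitters' processing notes also name HISAT2, Picard and DESeq. The header lists 7 alignment files, and the 3 columns present were used, 1 library per group, with no replicate.

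Libraries were scaled by TMM in edgeR 4.0.16 (R 4.3.3). Log2 fold changes are differences of log2 CPM with a prior count of 2, which shrinks genes with few reads; folds are ratios of CPM with exact conditional binomial intervals, and shares have Clopper-Pearson intervals. The filter of 1 CPM in 1 library or more kept 13100 of 24421 genes. The fold and size rule were tried on simulated counts, with changes past the size rule planted in 200 genes averaging at least 10 CPM. The simulation held counting error alone, so it cannot speak to the spread between cultures. Members, lists and classes were chosen with earlier results of these data known. Members past the size rule and the motor genes of each class are named, as are partner genes past it. Bicra and Bicral were matched as Gltscr1 and Gltscr1l. Alternatives covered scaling, prior count, filter, length trend and threshold.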

Additional observations from a re-analysis of the deposited data

How the results depend on the processing

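Each fold rests on 1 library per group, so a difference between cultures cannot be separated from one between treatments. Counting sets the precision. Members with under 100 reads in at least 1 library, such as Arid3b, Arid3c and Ino80dos, have wide intervals. No paired analysis was possible because each group has a single library. Under total-count, median-ratio and upper-quartile scaling, prior counts of 0.5 and 5, both other filters and removal of the length trend, the counts of members past the size rule stayed within 1.5 times, except that with upper-quartile scaling 1 member (Arid5a) in place of 2 was lower in CDDO+TPA against control. With a 1.5-fold threshold, 6 members were higher and 3 lower for TPA over control, 3 and 8 for CDDO+TPA over TPA, and 2 and 4 for CDDO+TPA over control. Restricted to the 36 measured remodelling genes, 1 was higher and 0 lower for TPA over control (9.57% and 5.91% of all genes). This restriction was chosen after seeing the data. For CDDO+TPA over TPA 1 was higher and 2 lower, or 2.78% and 5.56% (7.87% and 7.78% of all genes). For CDDO+TPA over control 0 were higher and 1 lower (8.02% and 3.37%). All 36 averaged at least 10 CPM. Over the 9890 genes at that level, the shares were 3.85% higher and 4.81% lower for TPA over control. They were 5.28% and 2.3% for CDDO+TPA over TPA, and 5.13% and 1.67% for CDDO+TPA over control. Counts this small cannot be set apart from either background. No fold change of a member past the rule turned its direction under these alternatives.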
